A study of Mus musculus with 2 samples.

Results

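The 42 genes described here act in DNA damage signalling and repair. They were taken as a fixed list of symbols, grouped by the repair step in which each product works, and all 42 were found among the 35275 genes of the count table by matching Ensembl identifiers to GENCODE M21 symbols. RNAseq was performed on AML12, a line of untransformed hepatocytes derived from a mouse transgenic for human transforming growth factor alpha, and the labels give its source as liver of a male CD-1 animal of 3 months. Control cells received no hydrogen peroxide. Senescent cells were exposed to hydrogen peroxide for 1 h per day on 6 days, starting with 1 mM and going on with 750 μM from the next day, and they recovered for 23 h after each exposure. Recovery was in medium with serum, insulin, transferrin, selenium and dexamethasone, whereas peroxide was given without serum, and the sources used here do not say whether control cells were also kept without serum for that hour. For either condition, RNA of 3 samples was combined into 1 library, with 28021941 counted reads from control and 25738075 from senescent cells. The question addressed was whether genes that mend oxidised bases and genes that mend double-strand breaks differed in RNA level after repeated peroxide.

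Hydrogen peroxide oxidises DNA bases and breaks the sugar backbone. Small base lesions are handled by base excision repair, in which a glycosylase cuts out the damaged base, an endonuclease opens the strand, and a polymerase and a ligase refill and seal it. Double-strand breaks are joined directly by end joining, which works throughout the cell cycle, or copied from the sister chromatid by homologous recombination, which is restricted to cells that have replicated their DNA. Kinases that sense breaks and stalled forks pass the signal to p53 and to the cell cycle machinery.

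Transcripts of the 42 genes differed little between the libraries, and no arm of repair was called as a block. Neil1, a glycosylase for oxidised bases, was the only member whose RNA changed by more than 1 on the log2 scale, and it was lower in the senescent cells. Smaller values below 0 were found for Polb, Brca1, Fancd2, Nbn and Xrcc1, and smaller values above 0 for Polh, Lig4, Lig3, Atm and Ercc2. Neil3 (-0.85, with an interval below 0) and Neil2 (0.62, with an interval that held 0) had few reads. The ratio is that of senescent over control reads after scaling of the libraries by the trimmed mean of M values (TMM), on the log2 scale. Its 95% Clopper-Pearson interval covers counting error only. Without molecular identifiers, reads copied by PCR are counted as separate molecules, which makes the interval too narrow even for counting error. Each condition had 1 library, which leaves the ratios without a replicate check and without a p-value, so they compare the libraries rather than the conditions.

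All 42 members had at least 10 reads over both libraries and 41 had at least 100. Past a log2 ratio of 1.5, the threshold used in the study, with an interval that left out 0, 0 of 42 members were higher and 0 of 42 were lower, beside 2.71% and 5.6% of the 14383 genes with at least 10 reads. At the milder ratio of 1, 0 members were higher, against a background of 5.09%, and 1 was lower, against 9.98%. Among the 11291 genes with at least 100 reads, which are closer to the members in depth, these shares were 3.51% and 7.5%. Judged by the interval alone, 13 members lay above 0 and 20 below 0, and for 9 the interval held 0. The same rule took 34% of all genes above 0 and 34.6% below 0. Of the 11291 genes with at least 100 reads it took 4504 above 0 and 4311 below. With total-count scaling this division of the members was 9 above and 25 below, since the intervals of Rad50, Ogg1, Msh6 and Rad18 then held 0 and those of Palb2, Xrcc6, Ung, Mpg and Pms2 lay below it. The shares of all genes given here are for TMM scaling and are no background for these counts. Total-count scaling moved the median of all genes by -0.11. Widening the intervals by a presumed coefficient of variation between cultures of 0.1 left 3 above and 11 below, and for one of 0.4 it left 0 on either side, Neil1 included. These counts also stand without a background, since the shares of all genes are for intervals that were not widened. The median log2 ratio of the 42 members was -0.18, with quartiles of -0.44 and 0.25, beside -0.02 over all genes with quartiles of -0.48 and 0.35. Summed over the list, the TMM-scaled CPM were 1456 in control and 1455 in senescent cells, while single genes moved in both directions. This sum is one of reads, to which long and abundant transcripts add most, and it was level with TMM scaling. The summed RPKM, which take account of exon length and use the total of counted reads, were 417.6 in control and 392.9 in senescent cells. A level total thus did not hold on both scales. In bulk RNA, a smaller number of cells that express a gene and less RNA of it per cell cannot be told apart.

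**Figure D1:**
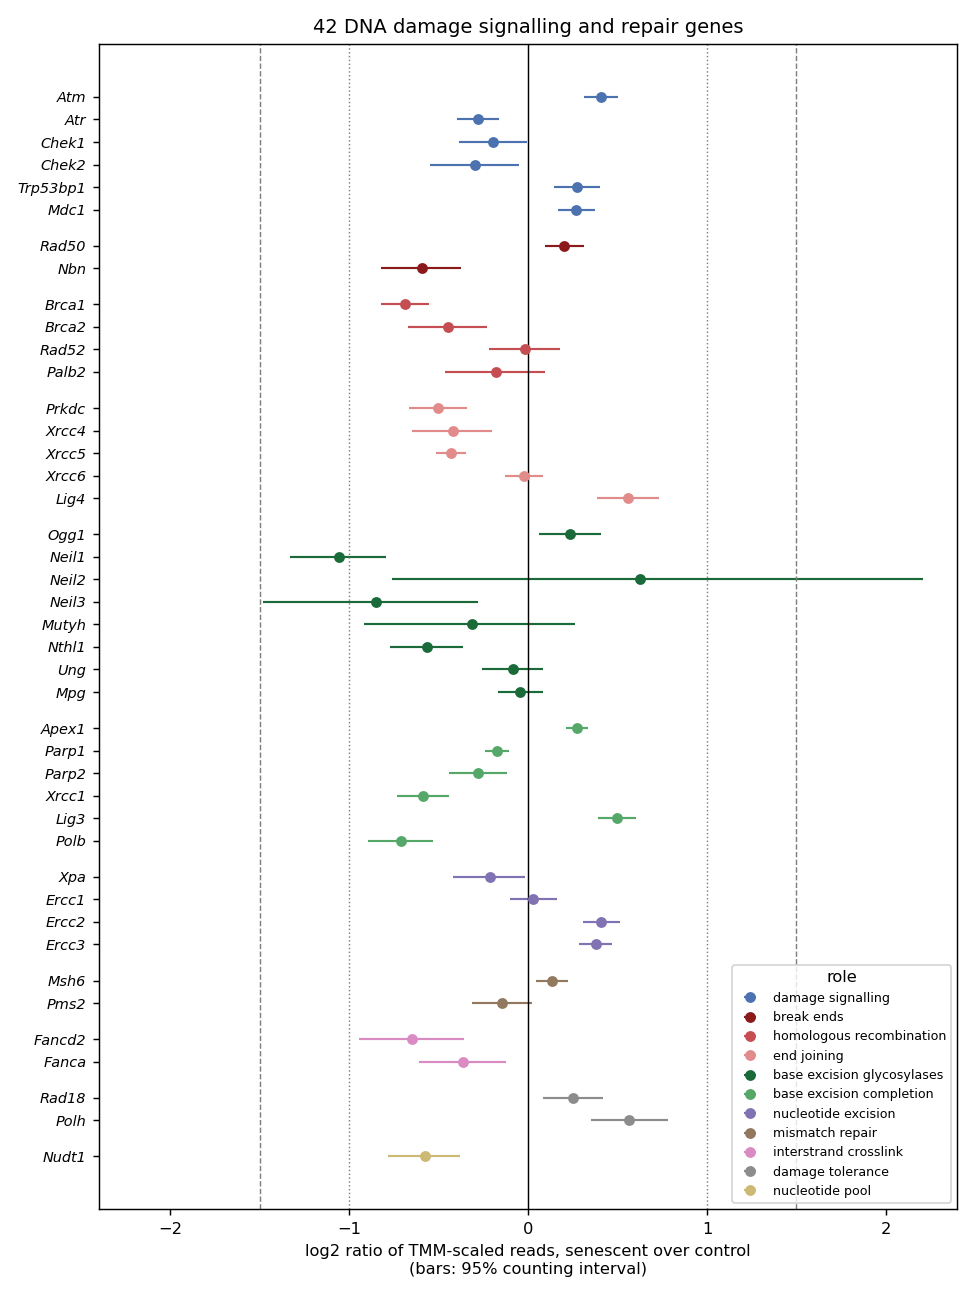
Log2 ratio of TMM-scaled reads, senescent over control, for the 42 members in the order of their roles, with 95% counting intervals as bars and 1 library per condition. Dotted lines mark a ratio of 1 and dashed lines a ratio of 1.5 in either direction; the point for Neil1, at -1.06, is the only one past a dotted line, and the widest bar belongs to Neil2, with 8 and 11 reads.

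Among the genes of damage signalling, the kinase that answers breaks and the kinase that answers exposed single strands had ratios of opposite sign. Atm, which is activated at double-strand breaks, had 1742 control and 1971 senescent reads, giving a log2 ratio of 0.41 (0.31 to 0.50). Atr, which is activated by single-stranded DNA at stalled forks, had 1383 and 971 reads, with a log2 ratio of -0.28 (-0.40 to -0.16). The checkpoint kinases they act through were both slightly lower. Chek1, the main target of Atr, had 525 and 391 reads (-0.20), with an interval that only just left out 0 at its upper end. Chek2, the main target of Atm, had 326 and 226 reads (-0.30). The chromatin adaptors that gather at breaks were both slightly higher. Mdc1, which binds the phosphorylated histone H2AX, had 1543 and 1587 reads (0.27), and Trp53bp1, which favours end joining by protecting the ends from resection, had 957 and 987 (0.27). Exons of Trp53bp1 share 15.0% of their length with Tubgcp4 on the opposite strand, whose own ratio was -0.36. The 6 members of damage signalling had a median of 0.04, and all 6 lay within 0.5 of 0, as did 58.1% of all genes and 64.3% of those with at least 100 reads. Of 20 other genes of damage signalling, 0 passed 1 in either direction, beside 5.09% of all genes higher and 9.98% lower. Their median was -0.01.

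Among the genes of double-strand break repair, most ratios were negative. Of their 11 intervals 6 lay below 0 and 2 above, beside 34.6% and 34% of all genes. All 11 had at least 100 reads, and of the 11291 genes at that depth 4311 had an interval below 0 and 4504 above. At the break itself, the complex that holds and trims the ends split between its subunits. Nbn, which recruits Atm to the complex, had 459 and 259 reads (-0.59, interval -0.82 to -0.37), whereas Rad50, its coiled-coil tether, had 1372 and 1346 reads (0.20, interval 0.09 to 0.31). For homologous recombination, 4 of 4 ratios were below 0, beside 51.1% of all genes, and the intervals of Rad52 and Palb2 held 0. Brca1 (ENSMUSG00000017146, chromosome 11 from 101488764 to 101551955 of GRCm38), which promotes resection and brings in the recombinase, had 1289 control and 682 senescent reads, giving a log2 ratio of -0.69 (-0.82 to -0.55) or 0.621-fold. Brca2, which loads the recombinase on resected DNA, had 439 and 274 reads (-0.45, interval -0.67 to -0.23). Palb2 bridges these proteins and had 249 and 187 reads (-0.18, interval -0.46 to 0.10). Rad52, which anneals complementary strands, had 455 and 383 reads (-0.02), a difference within its interval of -0.22 to 0.18.

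End joining showed the widest spread within this arm. Xrcc5 (ENSMUSG00000026187, chromosome 1 from 72307421 to 72394952) encodes Ku80, which forms the ring that slides onto broken ends, and had 3110 control and 1967 senescent reads, giving a log2 ratio of -0.43 (-0.51 to -0.35). Its partner Ku70, encoded by Xrcc6, had 1546 and 1297 reads (-0.02, interval -0.13 to 0.08). Prkdc, the catalytic subunit of the DNA-dependent kinase that docks on Ku, had 839 and 504 reads (-0.50). Xrcc4, the scaffold of the final ligase, had 426 and 271 reads (-0.42), while the ligase itself was on the other side of 0. Lig4 (ENSMUSG00000049717, chromosome 8 from 9969049 to 9977686) had 490 and 616 reads, with a log2 ratio of 0.56 (0.39 to 0.73) or 1.47-fold. It was thus the highest member of double-strand break repair. None of the 11 passed 1 in either direction, beside 3.51% higher and 7.5% lower among genes with at least 100 reads.

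The glycosylases that open base excision repair held both the lowest ratio of the list and several whose intervals held 0. Neil1 (ENSMUSG00000032298, chromosome 9 from 57142800 to 57148305), which removes oxidised pyrimidines and ring-opened purines, had 404 control and 165 senescent reads. Its log2 ratio was -1.06 (-1.33 to -0.80) or 0.480-fold, at percentile 10.2 of all genes with at least 10 reads, and after the median of genes of like exon length was subtracted it was -0.94, short of 1. Ogg1, which removes 8-oxoguanine, the most familiar product of guanine oxidation, had 554 and 556 reads (0.23, interval 0.06 to 0.41, or -0.04 to 0.30 with total-count scaling). Ogg1 shares 10.6% of its exon length with Camk1 on the opposite strand, which had a ratio of -0.24. Nthl1, which like Neil1 acts on oxidised pyrimidines, had 545 and 314 reads (-0.56, interval -0.77 to -0.36). Neil3, a glycosylase linked to replication, had 77 and 36 reads (-0.85), and with so few reads the interval ran from -1.48 to -0.28. Mutyh takes out adenine placed opposite 8-oxoguanine and had 63 and 43 reads (-0.32, interval -0.92 to 0.26), a difference not detectable at this depth. Neil2 had little RNA in either library, with 8 and 11 reads and an interval of -0.76 to 2.21. For the glycosylases of other lesions the intervals held 0, though with total-count scaling both lay just below it. Ung, which removes uracil, had 633 and 508 reads (-0.09, interval -0.26 to 0.08), and Mpg, which removes alkylated purines, had 1162 and 961 (-0.04, interval -0.17 to 0.08). Mpg shares 35.7% of its exon length with Nprl3 on the opposite strand, which had a ratio of 0.04. Of the 8 glycosylases, 3 had an interval below 0, 1 above 0, and 4 held 0, beside 34.6% of all genes below and 34% above.

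After the base is gone, the strand is cut, refilled and sealed, and here the endonuclease and the ligase lay above 0 while the polymerase, the scaffold and the break sensors lay below. Apex1 (ENSMUSG00000035960, chromosome 14 from 50924968 to 50927139) encodes the main endonuclease at sites without a base and had the most reads of the list, 4349 for the control and 4485 for senescent cells, with a log2 ratio of 0.27 (0.21 to 0.33). Its exons share 61.7% of their length with Pip4p1 on the opposite strand, which had 1172 and 1328 reads (0.41). The use of strand in the counting is not given in the sources used here, so reads in such stretches cannot be assigned with certainty. Polb, the polymerase that fills the gap, had 722 and 376 reads (-0.71, interval -0.90 to -0.53) or 0.611-fold. Xrcc1, the scaffold that holds polymerase and ligase together, had 1095 and 621 reads (-0.59, interval -0.73 to -0.45). Lig3, the ligase bound by Xrcc1, had 1326 and 1597 reads (0.50, interval 0.39 to 0.60), and the gene Rffl, which covers 25.1% of its exon length from the opposite strand, had a ratio of -0.58. Parp1 and Parp2 sense strand breaks and build poly(ADP-ribose) chains there. Parp1 had 3936 and 2976 reads (-0.17, interval -0.24 to -0.10), and Parp2 had 751 and 528 (-0.28, interval -0.44 to -0.12).

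Set against each other, both arms of repair leaned below 0 and overlapped across most of their range. The 14 members of base excision repair had a median log2 ratio of -0.23, with values from -1.06 to 0.62. The 11 members of double-strand break repair had a median of -0.42, with values from -0.69 to 0.56. Base excision minus double-strand break was thus 0.20 on the log2 scale, no larger than the spread within either arm. It was not tested, since members of an arm are not replicates. By their means the arms were closer, at -0.22 for base excision and -0.23 for double-strand break repair. The difference of medians did not hold under every choice of genes. Without the members whose exons overlap another gene, among them Apex1, Ogg1 and Lig3, it was -0.01, and with Atm, Chek2, Trp53bp1 and Mdc1 counted among the genes of double-strand break repair it was -0.04.

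In the wider pathway lists, base excision repair did not lean below 0. These lists were drawn from general knowledge of each process, but with earlier results of these data known. Of 16 other genes of base excision repair, 11 had a ratio above 0, with a median of 0.09, and 6 had an interval above 0 and 4 below. Of 33 other genes of double-strand break repair, 25 had a ratio below 0, with a median of -0.21, and 4 had an interval above 0 and 14 below. Of all genes, 48.9% had a ratio above 0 and 51.1% below, and by the interval the shares were 34% and 34.6%. The difference of these medians was 0.30. None of these genes passed 1 with an interval that left out 0, beside 5.09% of all genes higher and 9.98% lower. Summed per arm, scaled CPM of the members were 537 and 531 for base excision repair (-0.02 on the log2 scale) and 367 and 314 for double-strand break repair (-0.23), sums that rest on their most abundant genes. With Apex1 left out of the first sum and Xrcc5 out of the second, the log2 ratios of the sums were both -0.15.

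**Figure D2:**
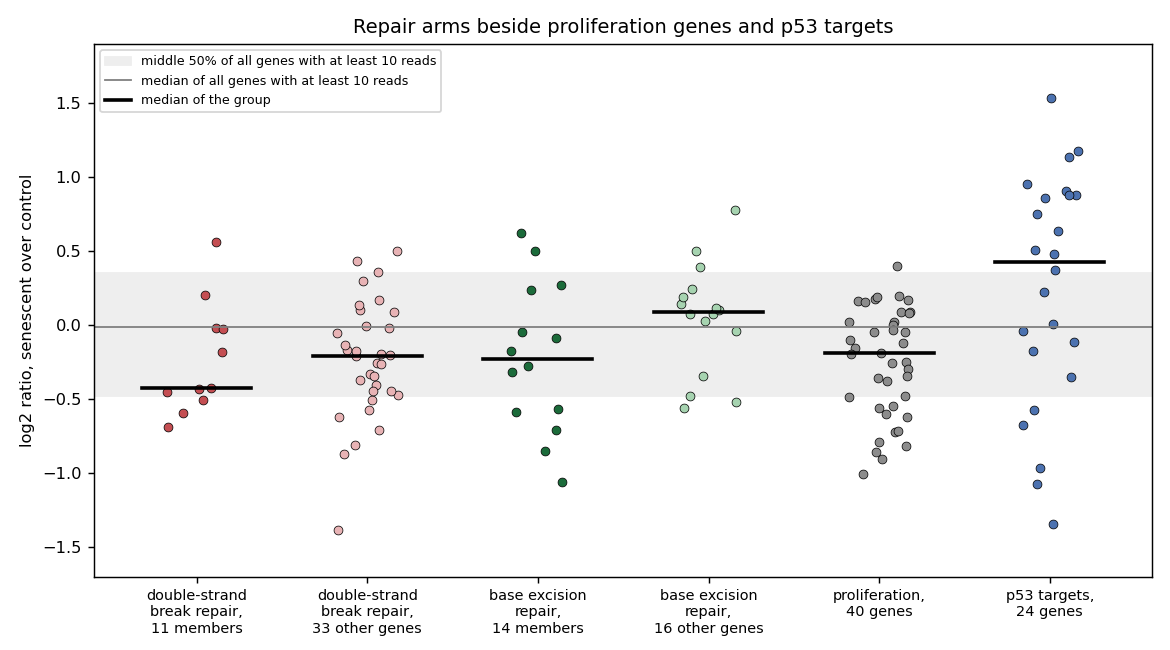
Log2 ratio of senescent over control reads of each gene, as points, for members and other genes of both repair arms and, for context, for proliferation genes and p53 targets; black bars are medians, and the grey band spans the middle 50% of all genes with at least 10 reads. The medians of the members are -0.42 for double-strand break repair and -0.23 for base excision repair, and the points of both arms overlap, while p53 targets reach from -1.35 to 1.53.

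Levels were compared between genes as RPKM, the reads per kilobase of merged exon divided by the total of counted reads. On this scale, a few transcripts made up most of each arm. Apex1 stood at 109 in control and 123 in senescent cells. Xrcc5 followed in the control at 43.4 against 29.9, then Parp1 at 26.5 against 21.8 and Ercc3 at 21.9 against 26.4. Apex1 alone made up 53.7% of the summed level of the base excision members in control and 61.7% in senescent cells. Xrcc5 made up 47.7% and 42.2% of the summed level of the double-strand break members. At the low end stood the glycosylases Neil2, at 0.0569 and 0.0852, Neil3, at 0.495 and 0.252, and Mutyh, at 0.861 and 0.640. Among the glycosylases for oxidised bases, Ogg1 (9.04), Neil1 (7.71) and Nthl1 (7.16) were of similar level in the control library. In the senescent library Ogg1 stood at 9.88, Nthl1 at 4.49 and Neil1 at 3.43, so that Ogg1 was the most abundant of them in both libraries. Brca2 (1.15 and 0.780) and Palb2 (1.21 and 0.990) were among the low transcripts of homologous recombination, and Brca1 stood higher, at 5.39 and 3.11. Merged exon length counts every annotated exon, so levels of genes with long rare exons are understated, whereas ratios between libraries are unaffected.

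**Figure D3:**
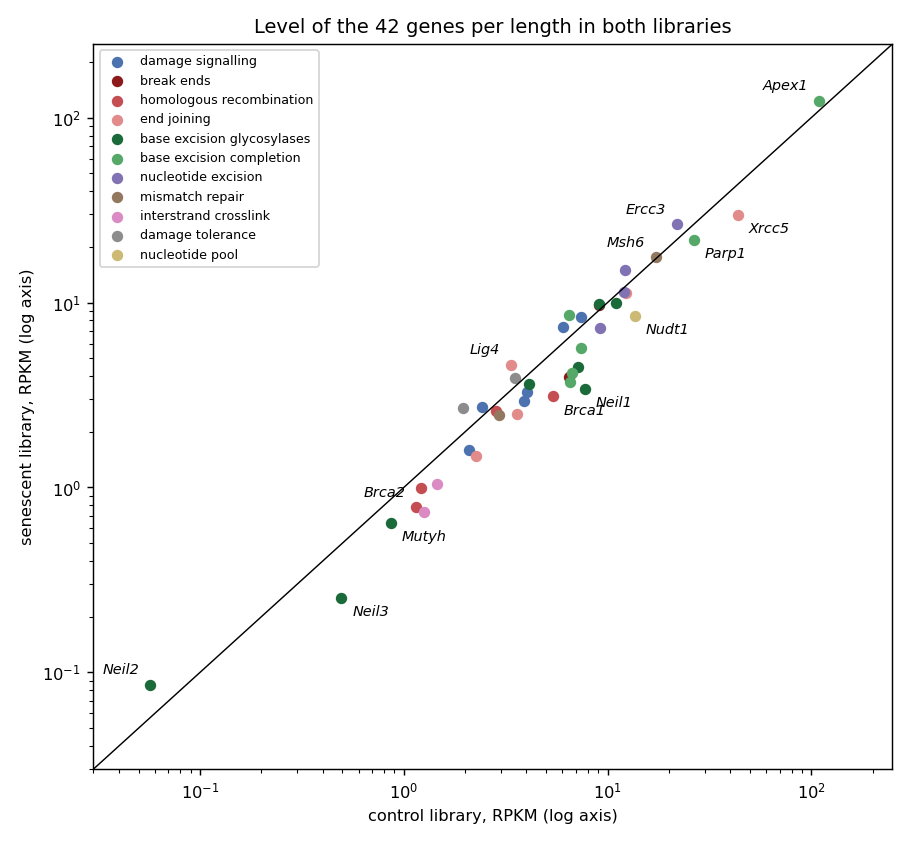
Level of the 42 members in RPKM, control library on the horizontal and senescent library on the vertical axis, both logarithmic, with the line of equal level. Levels range from 0.0569 for Neil2 to 109 for Apex1 in the control, and Neil1, Brca1 and Nudt1 lie below the line.

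Several members encode proteins that bind each other or have related tasks, and their transcripts can be set against each other within a library, which needs no scaling. These 10 pairs were chosen after the values were seen and are a description. The ligases stood apart from their scaffolds in both arms. Lig3 had 1.21 reads per read of Xrcc1 in control and 2.57 in senescent cells, a log2 change of 1.09 (0.91 to 1.26). Lig4 had 1.15 reads per read of Xrcc4 in control and 2.27 in senescent cells, a log2 change of 0.98 (0.70 to 1.26). Per kilobase of merged exon these ratios were 0.969 and 2.06 for Lig3 and 0.932 and 1.84 for Lig4. Lig3 is also the member that overlaps Rffl, Xrcc4 shares 2.66% of its exon length with Tmem167, and Lig4 and Xrcc1 share no exon bases with another gene.

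Smaller shifts were found within 4 other pairs. Rad50 over Nbn went from 2.99 to 5.20 (0.80, interval 0.55 to 1.04), Atm over Atr from 1.26 to 2.03 (0.69, interval 0.54 to 0.84), Palb2 over Brca1 from 0.193 to 0.274 (0.51, interval 0.20 to 0.81), and Xrcc6 over Xrcc5 from 0.497 to 0.659 (0.41, interval 0.27 to 0.54). The order within a pair was chosen with the values known, so the common sign of these changes carries no information. For the other 4 pairs the interval held 0. Ercc2 and Ercc3, the helicases of the transcription and repair factor TFIIH, had ratios of 0.817 and 0.835 (a log2 change of 0.03, interval -0.11 to 0.17). Parp2 over Parp1 was 0.191 and 0.177 (-0.10, interval -0.28 to 0.07), Chek2 over Chek1 was 0.621 and 0.578 (-0.10, interval -0.41 to 0.21), and Palb2 over Brca2 was 0.567 and 0.682 (0.27, interval -0.08 to 0.62).

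**Figure D4:**
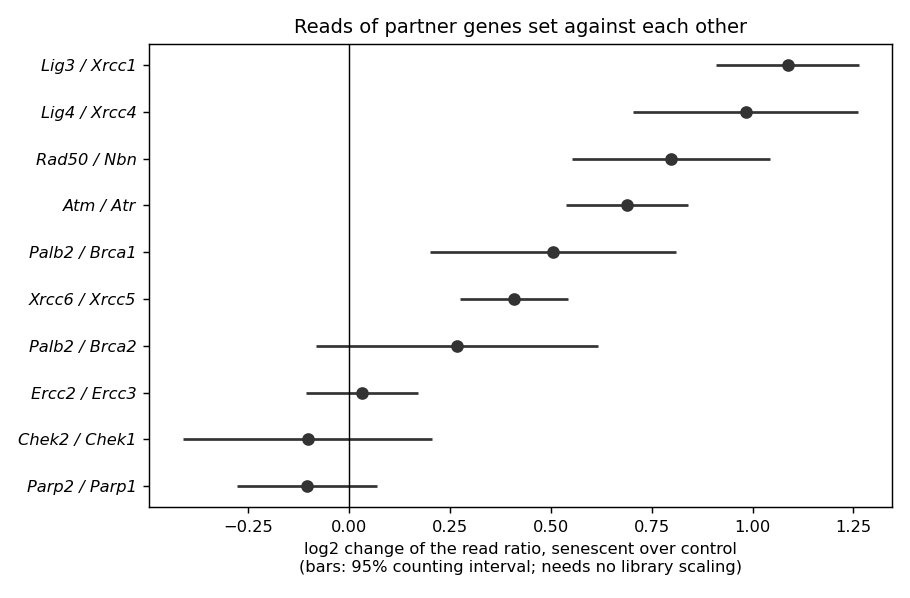
Change of the read ratio between the genes of 10 pairs, senescent over control on the log2 scale, with 95% counting intervals as bars and 1 library per condition. The pairs of ligase and scaffold, Lig3 with Xrcc1 at 1.09 and Lig4 with Xrcc4 at 0.98, lie farthest from 0, and 4 of 10 bars cross 0.

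The remaining members serve other repair routes. In nucleotide excision repair, which cuts out bulky lesions, the TFIIH helicases were slightly higher. Ercc2 had 1423 and 1610 reads (0.41, interval 0.30 to 0.51), and Ercc3 had 1741 and 1928 (0.38, interval 0.28 to 0.47). Exons of Ercc2 share 42.7% of their length with other genes, nearly all of it on the opposite strand, and of these Gm26852, which shares the most, had 37 and 28 reads (-0.17) and Klc3 had 128 and 58 (-0.90). Xpa, which verifies the lesion, had 485 and 356 reads (-0.22, interval -0.42 to -0.02, or -0.30 to 0.10 after subtracting the median of genes of like exon length), and Ercc1, part of the nuclease that cuts on the 5′ side, had 1051 and 915 (0.03, interval -0.10 to 0.16). The mismatch repair genes were close to level, with 2096 and 1960 reads for Msh6 (0.13), which recognises mismatches, and 667 and 514 for Pms2 (-0.15, interval -0.32 to 0.02, or -0.42 to -0.08 after that subtraction), which nicks the strand to be corrected.

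Both members of interstrand crosslink repair were lower by their intervals, beside 34.6% of all genes. Fancd2, which is ubiquitinated when a fork meets a crosslink, had 278 and 151 reads (-0.65, interval -0.95 to -0.36), and Fanca, part of the complex that attaches the ubiquitin, had 357 and 236 (-0.37, interval -0.61 to -0.13) and shares 10.5% of its exon length with Zfp276 on the opposite strand (0.38). Both members of damage tolerance, by which replication passes a lesion without removing it, had intervals above 0, beside 34% of all genes. The interval of Rad18 held 0 with total-count scaling. Polh, a polymerase that copies past damaged bases, had 327 and 413 reads (0.56, interval 0.35 to 0.78), and Rad18, the ligase that marks the sliding clamp for this exchange, had 573 and 581 (0.25, interval 0.08 to 0.42). Nudt1, which destroys oxidised nucleotides before they enter DNA, had 564 and 322 reads (-0.58, interval -0.78 to -0.38), and shares 11.3% of its exon length with Gm43338 and Mrm2 on the opposite strand, of which Mrm2 had a ratio of 0.24.

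Of 128 other genes of the pathway, 0 were higher past 1 and 3 were lower past 1 with an interval that left out 0, beside the 5.09% and 9.98% of all genes, and 35 had an interval above 0 and 47 below, beside 34% and 34.6%. Ddb2, which finds ultraviolet lesions in chromatin, fell from 371 to 150 reads (-1.07, interval -1.36 to -0.80). Fancc, another subunit of the crosslink complex, fell from 244 to 103 (-1.01, interval -1.36 to -0.68). Zranb3, which remodels stalled forks, fell from 321 to 126 (-1.11, interval -1.43 to -0.82). These lay in nucleotide excision, crosslink repair and damage tolerance, and the lists of other genes that hold them had medians of -0.01, -0.12 and 0.02. Other mismatch repair genes, 5 in number, had a median of -0.37, and 3 genes of direct reversal had a median of -0.20.

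Promoter windows were searched because many repair genes are transcribed with the cell cycle, and ratios of members were small and of both signs. RefSeq windows of GRCm38.p6, from 250 bases before to 50 after the start, were found for 35 of the 42 members, and there was no entry for Ercc3, Fancd2, Nbn, Neil2, Polb, Prkdc and Rad50. The letters TTTCGCGC, TTTGGCGC or TTTCCCGC, bound by E2F factors of the cell cycle, were present on either strand in the windows of 6 of 35 members, Brca2, Chek2, Mdc1, Msh6, Nthl1 and Xrcc6. They were present in 1.84% of all 32851 windows, and among genes with at least 10 reads 4.02% had a window with them. In Msh6 the match begins at base 16 after the start. Upstream stretches of the other 5 are shown with the match in capitals, in the direction of the gene, as the E2F letters in Mdc1 and Nthl1 and as their reverse complement in Brca2, Chek2 and Xrcc6.
Brca2: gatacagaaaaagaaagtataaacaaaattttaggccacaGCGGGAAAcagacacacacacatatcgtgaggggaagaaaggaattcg
Chek2: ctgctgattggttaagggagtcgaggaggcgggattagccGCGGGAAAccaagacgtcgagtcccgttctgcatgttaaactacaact
Mdc1: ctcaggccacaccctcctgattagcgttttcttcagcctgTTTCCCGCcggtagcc
Nthl1: cgcgcgcgccTTTCGCGCgcaggtcctc
Xrcc6: gggggtggaaGCGGGAAAtgcgagtggg
All 5 stretches are on the plus strand of GRCm38.p6, at chr5:150522413-150522500 for Brca2, chr5:110839791-110839878 for Chek2, chr17:35841442-35841497 for Mdc1, chr17:24632540-24632567 for Nthl1 and chr15:82016313-82016340 for Xrcc6. The stretches of Brca2, Chek2 and Mdc1 lie outside annotated genes of GENCODE M21, that of Nthl1 lies in an exon of Tsc2, and that of Xrcc6 lies in an exon of another Xrcc6 transcript and an intron of Desi1. Counted from the start, the match begins at base -168 in Brca2, -152 in Chek2, -132 in Nthl1, -46 in Xrcc6 and -16 in Mdc1. For Brca2 and Mdc1 the first bases after the RefSeq start were not found in a GENCODE transcript of the gene, so the start differs between annotations. Log2 ratios of genes that share these letters were -0.45 for Brca2, -0.30 for Chek2, 0.27 for Mdc1, -0.56 for Nthl1, -0.02 for Xrcc6 and 0.13 for Msh6, so the letters did not go with 1 direction. A match describes the sequence and is not evidence that a factor binds there.

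For the other motifs the counts of members are given beside the share of all windows. The letters TTTGAA or TTCGAA of the cell cycle homology region were present in 3 of 35 members, Apex1, Atr and Neil3, and in 19.2% of all windows, or in 16.6% of genes with at least 10 reads. CCAAT, bound by NF-Y, was present in 19 of 35 members and in 37.4% of all windows, or in 43.1% of genes with at least 10 reads. The core of the antioxidant response element, TGACNNNGC, was present in 5 of 35 members, Brca2, Mdc1, Neil1, Pms2 and Rad52, and in 12.4% of all windows, or in 16.9% of genes with at least 10 reads. The p53 decamer motif was present in 3, Fanca, Neil1 and Neil3, and in 8.36% of all windows, or in 8.26% of genes with at least 10 reads. Neil1, the member past 1, is shown with its match to the antioxidant core in capitals, which begins at base -199 from the start, on the minus strand at chr9:57148456-57148544 of GRCm38.p6, outside annotated genes.
Neil1: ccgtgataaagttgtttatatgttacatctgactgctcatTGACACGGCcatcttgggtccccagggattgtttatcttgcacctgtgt
Absence of a match says only that these letters are not in the window.

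Cell cycle genes and p53 targets were read beside the repair genes, and their part in the repair ratios was not tested. Of 40 proliferation genes, 8 had an interval above 0 and 21 below, beside 34% and 34.6% of all genes, with a median log2 ratio of -0.19, close to that of the repair members. Mcm6, a helicase subunit of DNA replication with the most reads of the list, had 6663 and 6367 reads (0.16). Tyms, which makes thymidylate, fell from 1395 to 592 reads (-1.01), and E2f2, Ccne1 and Ccne2, regulators of entry into S phase, had ratios of -0.90, -0.86 and -0.82. Of 24 p53 targets, 14 had an interval above 0 and 7 below, beside the same shares, with a median of 0.43. Ccng1, with the most reads, had 12010 and 18885 (0.88). Mdm2, Zmat3 and Tnfrsf10b had ratios of 1.53, 1.18 and 1.13, and Fas, a death receptor, had -1.35. Repair genes that are also p53 targets went both ways, with 0.88 for Polk, 0.22 for Ercc5, 0.01 for Xpc and -1.07 for Ddb2.

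Markers of cell identity were read to check the label. Of 16 hepatocyte markers, 15 were matched to a symbol, of which 8 had an interval above 0 and 4 below, beside 34% and 34.6% of all genes, with a median log2 ratio of 0.17. Their summed RPKM was 4582 in control and 5089 in senescent cells, of which Krt8 and Krt18 made up 3182 and 4521, and without these keratins the sum of the other 13 was 1399 and 568. Krt8, a keratin of liver epithelium, had the most reads, 119403 and 144783 (0.51). Alb, which encodes albumin, fell from 32076 to 2917 reads (-3.23), Apoa1 had a ratio of -3.13, Serpina1a -1.42 and Ttr -0.91. The intervals of Krt18 (0.82), Apob (0.41) and the liver transcription factor Hnf4a (0.14) lay above 0. Afp, Cps1, Tat, Cyp2e1 and Cyp3a11, named here as markers near the bottom of the list, each had fewer than 100 reads in either library, and among them Cps1 had 19 and 55, Cyp2e1 0 and 50 and Cyp3a11 2 and 18. Transcripts of bile duct cells were present at a summed level of 1071 and 717. Krt19 led them in the senescent library, with 22885 and 19177 reads (-0.03), and Spp1 in the control library, with 25430 and 10580 (-1.04). Krt7 had a ratio of -1.43 and Cftr 2.20, while Epcam had 0 and 1 reads. Of 9 macrophage markers 5 were at or below the floor of 3 reads in both libraries, with Adgre1, Clec4f and Marco at 0, and the summed level of 116 and 43.8 was mostly Cd14, with 5551 and 1879 reads. Ptprc had 27 and 76 reads (1.68). Of 10 fibroblast and stellate markers 7 were at the floor, and the summed level was 0.171 and 0.0682. The others were Col1a1, with 21 and 1 reads, Des, with 6 and 1, and Dcn, with 0 and 4. Of 6 endothelial markers 4 were at the floor, and the summed level was 0.0346 and 0.0861. The others were Pecam1, with 4 and 4 reads, and Kdr, with 0 and 5.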

How the data were processed

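Cells, doses and pooling are as described above. The authors deposited a raw read count per Ensembl gene for each library. The submitters' processing notes name CASAVA, STAR, DESeq2, edgeR and the build mm10, without roles. The counting tool, annotation release and use of strand are not given in the sources used here. The initial of each column name was matched to that of a sample title, Young for control and Old for senescent cells. No label states this match in full. Of 35275 identifiers, 34490 (97.8%) had a GENCODE M21 symbol. Counts were scaled with TMM of edgeR 4.0.16 in R 4.3.3 (factors 1.04 and 0.964) and ratios were taken with a prior count of 1 (Python 3.11.15, scipy 1.17.1, pandas 2.3.3, numpy 2.4.6) and plotted with matplotlib 3.10.9. A gene needed at least 10 reads over both libraries, and 3 reads was the floor. No test across replicates was possible. The estimator was tested on simulated data. Members and lists were chosen with earlier results of these data known.

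All 42 members may be named. Of other pathway genes those past 1 with at least 100 reads are named, up to 5 per direction and role, and of the proliferation, p53 target and cell type lists the gene with the most reads and up to 4 with the largest change among those with at least 100 reads. Markers outside this rule, the neighbours that share exons with members, and genes shared between lists were named after their values were seen. A gene that this rule covers is not reported here. The cell type lists cover hepatocytes, macrophages, fibroblasts and stellate cells, cholangiocytes and endothelium. Alternatives were total-count, DESeq2 1.42.0 and upper-quartile scaling, minima of 1 and 100 reads, prior counts of 0.125 and 5, a threshold of 2, intervals widened for a biological coefficient of variation of 0.1 or 0.4, members without overlapping exons, and other memberships of both arms. Calls by the interval alone, partner ratios and the subtraction of the median of genes of like exon length were added after seeing the data.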

Additional observations from a re-analysis of the deposited data

How the results depend on the processing

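No paired analysis was possible because each condition has 1 library. Counts past 1.5 stayed at 0 in both directions under every alternative run. The 1 member lower past 1 became 0 with a biological coefficient of variation of 0.4 and also after subtracting the median of genes of like exon length, which rose from -0.12 in the shortest of 5 bins to 0.11 in the longest. Members with an interval above 0 went from 13 to 3 with a coefficient of 0.1, 0 with 0.4 and 7 without overlapping members, where only 22 of 42 remain. Those with an interval below 0 went from 20 to 11, 0 and 11. These counts stand without a background, since no share of all genes is given for these settings. Without overlapping members the median of base excision repair was -0.44 and its difference from double-strand break repair -0.0088. With Atm, Chek2, Trp53bp1 and Mdc1 added, the median of double-strand break repair was -0.18 and the difference -0.0433. With other pathway genes added, the medians were -0.00313 and -0.23. The cause of these shifts was not tested. Total-count scaling moved the median of all genes by -0.11. No member whose interval left out 0 changed sign under the scalings or prior counts run. The other values of counts and medians, 86 in number, moved less than the limits set for them. For ratios of single genes, 11 values moved past their limits and 241 did not. With total-count scaling, for example, Apex1 went to 0.17, Mdc1 to 0.16, Msh6 to 0.03 and Parp1 to -0.28.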
